A study of Bactrocera dorsalis with 6 samples.

Results

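The labelled female library was compared with the mated female library of the oriental fruit fly, Bactrocera dorsalis, unigene by unigene. These are 2 of the 6 libraries of the study, which also sequenced eggs, larvae, pupae and males, and each library was a single pool with no replicate. All flies came from the laboratory colony Punador, were reared as larvae on liquid artificial diet and were held as adults on sugar water and torula yeast, with no treatment. By the study's description, the adult male and the virgin female pools joined RNA, at equal concentration, from flies collected on each day of the first week of adult life, with the sexes kept apart from emergence. The mated females were taken from mating cages after that week, so adult age and mating state changed together and cannot be told apart in this comparison. In pooled RNA of this kind, fewer cells of a type and less RNA per cell cannot be told apart either.

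Sex in flies is carried to the body through a splicing cascade, in which tra and tra-2 direct the splicing of doublesex (dsx) into a male or a female transcript. The ovary of an adult female makes eggshell proteins and loads the oocyte with maternal RNA, and the fat body supplies yolk proteins. In Drosophila, males place products of the accessory glands in the female at mating, and mating is followed by changes in egg production, feeding and immune gene expression. A comparison of virgin with mated females asks which transcripts differ after mating, and it needs a library of virgin females on its control side.

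The label of that control side was in doubt from the values in the library. Its profile lay close to that of the male library, so it is called the labelled female library, by its label alone, throughout, and the male value is given beside most results. The direction of every difference with the mated females carries this doubt.

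The expected counts, the fragments that the authors assigned to each unigene, summed to 9905262 in males, 8632705 in the labelled female library and 8986331 in mated females. Levels are CPM, the counts scaled by these totals, and levels of different unigenes are compared only by FPKM, which also divides by length. A unigene was compared where it had at least 100 counts in both libraries together, which held for 7358 of 10799 unigenes, and it was called higher where its CPM was at least 2-fold higher. Intervals given after a ratio are exact 95% intervals from the counts and cover counting error only. Where a library had 0 counts, the ratio was set against 3 counts in that library and is a lower bound. With 1 library per side no test of the conditions was possible, and no p-value was computed.

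The first question was whether the labelled female library matched its label. dsx (comp25690_c0), the gene at the end of the splicing cascade, had 389 counts in males, 367 in the labelled female library and 475 in mated females, a ratio of mated over labelled female of 1.24 (1.08 to 1.43). On the log2 scale this ratio was 0.31 with column totals, 0.08 with TMM factors and -0.02 with size factors, so the total gave no direction that held across scalings. Its 4 isoforms were distributed differently. Isoforms seq1 and seq3 together held 98.2% of the dsx counts in mated females (exact interval 96.7% to 99.3%), 13.6% in males (10.4% to 17.4%) and 12.8% in the labelled female library (9.56% to 16.7%). Isoforms seq5 and seq6 held the rest, which was 87.2% in the labelled female library and 86.4% in males against 1.77% in mated females. The major isoforms of mated females were therefore the minor ones of both other adult libraries. Pupae lay between them with 59.8% in seq1 and seq3. Which isoform encodes which protein was not examined here.

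**Figure D1:**
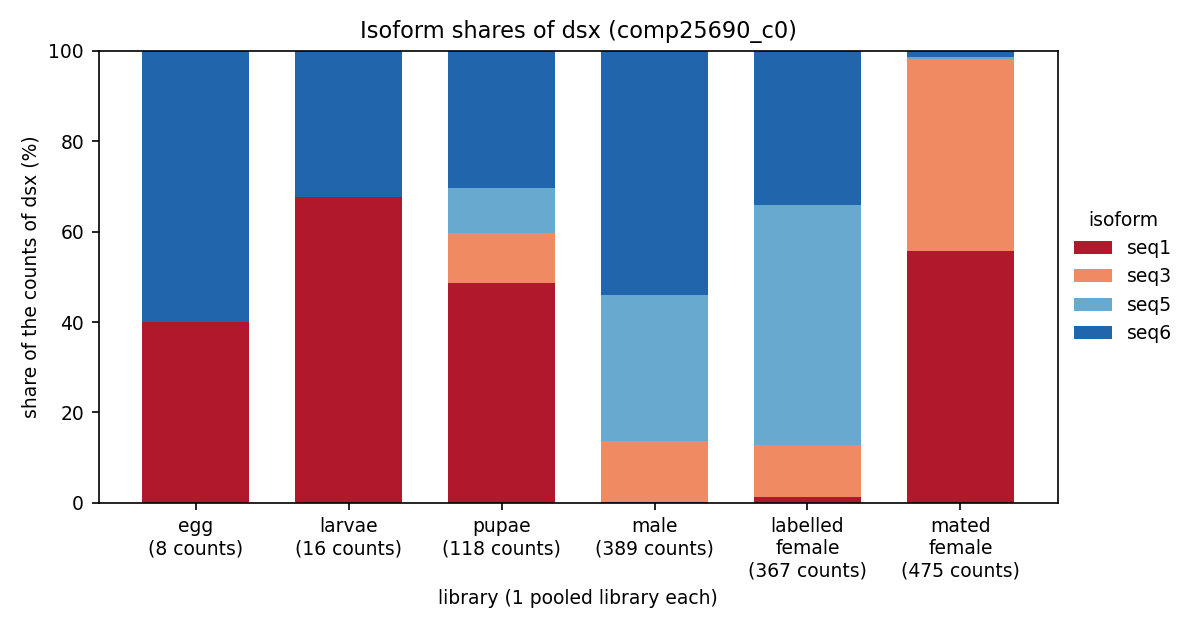
Stacked bars give the share of the dsx counts (vertical axis, percent) held by each of the 4 isoforms in each of the 6 libraries (horizontal axis), with the counts behind each bar. The labelled female and male bars are mostly blue (seq5 and seq6, 87.2% and 86.4%), and the mated female bar is mostly red and orange (seq1 and seq3, 98.2%).

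The distance between libraries, taken as the summed absolute differences of isoform shares divided by 2, was 0.854 between the labelled female library and mated females, 0.847 between males and mated females and 0.218 between the labelled female library and males. The last distance came mostly from the balance between seq5 and seq6. seq5 held 53.1% in the labelled female library (47.9% to 58.3%) and 32.3% in males (27.8% to 37.3%), while seq6 held 34.1% (29.2% to 39.2%) and 54.1% (48.9% to 59.0%). seq1 had 4.69 counts in the labelled female library, 0.79 in males and 264.92 in mated females. By these shares the labelled female library departed from males within dsx, though not toward the composition of mated females. Isoform counts are estimates that divide shared reads, and the intervals do not cover the error of that division.

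Sets of unigenes chosen on the male and mated female libraries alone gave the same placement. They were chosen after values had been seen, and their levels in the labelled female library took no part in the choice. A total of 250 unigenes were at least 16-fold higher in mated females than in males. Their summed level was 127181 CPM in mated females, 1629 in males and 1587 in the labelled female library, which is 97.4% of the male sum and 1.25% of the mated female sum. The opposite set of 481 unigenes, at least 16-fold higher in males, summed to 91005 CPM in males, 82855 in the labelled female library and 1601 in mated females. Each of the 250 and each of the 481 unigenes lay nearer to its male level than to its mated female level on the log scale. In the labelled female library, the first set was thus nearly as low as in males, and the second set was nearly as high (91.0% of the male sum). Males and mated females differed in age and mating state as well as sex, so the sets do not separate these. By the study's description, adults matured over about a week, the span of the virgin collections. Low levels of ovary transcripts in males and in immature females cannot be told apart here.

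**Figure D2:**
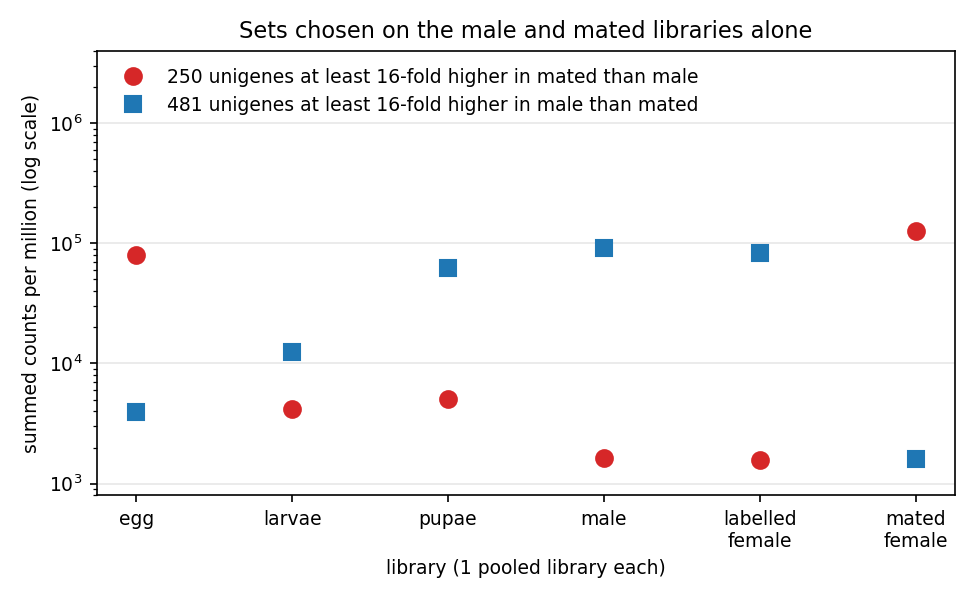
Points give the summed level (vertical axis, CPM on a log scale) of the 250 unigenes higher in mated females than in males (red circles) and of the 481 unigenes higher in males (blue squares) in each library (horizontal axis). Red circles stand at 127181 CPM in mated females against 1587 in the labelled female library, and blue squares at 1601 against 82855.

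The same sets also separated the other stages. The 250 unigenes summed to 80373 CPM in eggs, 4221 in larvae and 5112 in pupae, so the egg library came nearest to the mated females. The 481 unigenes summed to 62487 CPM in pupae, 12530 in larvae and 3938 in eggs.

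The axonemal dyneins are motor proteins of cilia and sperm tails. The 8 listed unigenes for axonemal and ciliary dyneins, used here as sperm markers, held 416 counts in males, 386 in the labelled female library and 2 in mated females. Dynein heavy chain 7 (comp14849_c0) had 311 counts in males, 288 in the labelled female library and 0 in mated females, at least 99.9-fold lower in the last. Dynein light chain 4 (comp14935_c0) had 72, 70 and 2 counts, 36.4-fold lower in mated females (9.72 to 306.8). Of the 8 unigenes, 7 were at 0 in mated females and 1 was at 0 in the labelled female library, and only the heavy chain 7 had enough counts for a call. The sperm markers were therefore at the male level in the labelled female library and close to absent from the mated females.

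Of the ovary markers, Cp19 and mos showed the reverse. Cp19, named for the Drosophila chorion gene, had 4 counts in males, 2 in the labelled female library and 12700 in mated females. mos, the oocyte kinase known from vertebrate meiosis, had 6, 11 and 142 counts. pipe, which acts in the follicle cells of Drosophila, was too low for a call, with 4, 7 and 0 counts. Cp19 in the labelled female library thus stood at the counting floor. Whether immature females of the first week would lie there too was not tested.

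Where the labelled female library departed from the male library, it did so by little. Of the 7210 unigenes that reached 100 counts in this pair, 30 (0.416%) were at least 2-fold higher in the labelled female library and 12 (0.166%) were at least 2-fold higher in males. The median log2 ratio of labelled female over male was -0.02, with quartiles at -0.19 and 0.14 and an SD of 0.29. The SD of the log2 ratio of mated over labelled female was 2.71. The labelled female and male libraries still differed by more than counting error, though this cannot tell different flies from different library preparation. Of the 7210 unigenes, 2815 lay outside the 95% counting range, where counting alone would leave 5% outside, and between the labelled female and mated female libraries 90.2% did.

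**Figure D3:**
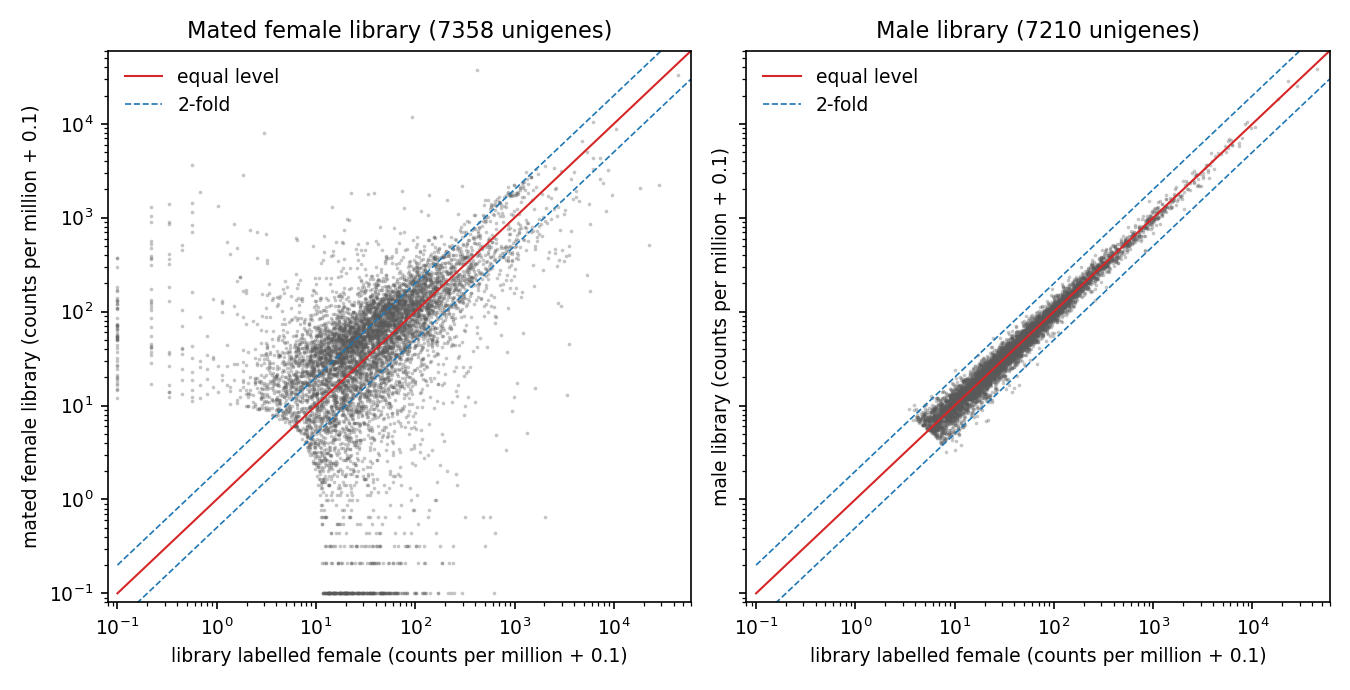
Each point is a unigene with at least 100 counts in the pair, placed by its level in the labelled female library (horizontal axis) and in the mated female library (left) or the male library (right), as CPM plus 0.1 on log axes. Points spread far beyond the dashed 2-fold lines on the left (SD of the log2 ratio 2.71) and keep close to the line of equal level on the right (SD 0.29).

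The 30 unigenes higher in the labelled female library had a median of 15.8 CPM there, 6.51 in males and 1.11 in mated females, and their median in larvae was 15.1. The largest ratio was that of comp19252_c0, ortholog of the Drosophila gene FBgn0035106, with 87 counts against 32 in males, 3.12-fold higher (2.06 to 4.84), and with 28 in mated females. The next were comp27674_c0 with 177 against 66 counts, 3.08-fold (2.31 to 4.15), and comp25418_c0 with 185 against 69, also 3.08-fold (2.32 to 4.12). These 2 unigenes had 7 and 8 counts in mated females, and 464 and 209 counts in larvae. comp22973_c0 followed with 99 against 37 counts and 11 in mated females, and comp30165_c0 with 322 against 138 counts and 14 in mated females. In all 5 unigenes the labelled female level was thus farther from the mated female level than the male level was.

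In the other direction, the 12 unigenes had medians of 10.1 CPM in males, 5.04 in the labelled female library and 8.01 in mated females. comp25431_c0 had 91 counts in males, 29 in the labelled female library and 42 in mated females, 2.73-fold lower in the labelled female library than in males (1.78 to 4.31). comp22249_c0 had 100, 33 and 43 counts, and comp25545_c0 had 234, 87 and 120. comp27590_c0 had 87, 33 and 4 counts. comp24060_c0, ortholog of FBgn0031573, had 89, 34 and 149 counts and was thus the only 1 of these 5 with more counts in mated females than in males. In the others of these 5, the labelled female level was nearer to the mated female level than the male level was. The departures from males thus had no common direction relative to mated females.

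A small trend with length ran through the comparison with males. With unigenes ranked by length and split into 5 classes after values were seen, the median log2 ratio of labelled female over male was -0.11 in the shortest class (median length 1002 bp) and 0.10 in the longest (4353 bp). The median log2 ratio of mated over labelled female was 0.46 in the shortest class and 0.06 in the longest. The part of length in the values of single unigenes was not tested.

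Between the labelled female library and mated females, 2397 of the 7358 unigenes (32.6%) were higher in mated females and 1624 (22.1%) were higher in the labelled female library. At least 16-fold differences were found in 249 and 475 unigenes. Set against the male library instead, 2311 of 7410 unigenes (31.2%) were higher in mated females and 1669 (22.5%) were higher in males. The median log2 ratio of mated over labelled female was 0.38 over all unigenes compared. Scaling with the TMM factors recovered from the deposited FPKM lowered every log2 ratio by 0.24, and median-of-ratios size factors lowered it by 0.33. The share of calls that were higher in mated females was 59.6% with column totals, 49.7% with TMM factors and 46.0% with size factors, so no excess of either direction held across the scalings. The ratios just inside and just outside the threshold were 2.0016 and 1.9996 for mated females and 2.0018 and 1.9990 for the labelled female library.

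The unigenes higher in mated females took 39.2% of the counts of that library, 9.06% of those of the labelled female library and 9.47% of those of males. The unigenes higher in the labelled female library took 41.0% of its counts, 41.2% of those of males and 8.81% of those of mated females. Both sets were called on the labelled female and mated female libraries, so the contrast between these libraries follows from the choice. The male library took no part in it. Of the 2397 unigenes, 52 had 0 counts in the labelled female library, and of the 1624 unigenes, 224 had 0 counts in mated females.

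The 249 unigenes at least 16-fold higher had median levels of 124 CPM in mated females, 74.2 in eggs, 1.15 in pupae, 0.803 in larvae, 0.808 in males and 0.695 in the labelled female library. Of these unigenes, 172 (69.1%) reached 10 CPM in eggs and 61 (24.5%) were below 1 CPM there. Over all 7358 unigenes, 79.4% reached 10 CPM in eggs and 9.36% were below 1 CPM. The share that reached 10 CPM in eggs was thus below that of all unigenes, and the share below 1 CPM was above it. The median in eggs, however, was above the 52.1 CPM of all unigenes. The share of the set that reached 10 CPM was only 20.9% in larvae, 18.5% in pupae and 14.1% in males. The levels of 10 and 1 CPM and the 16-fold sets were chosen after values were seen.

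The 475 unigenes at least 16-fold higher in the labelled female library had median levels of 34.5 CPM there, 37.9 in males, 11.3 in pupae, 0.134 in larvae, 0.135 in eggs and 0.111 in mated females. In eggs, 352 of them were below 1 CPM, and in pupae 7 were (1.47%, against 3.59% of all unigenes). In pupae 258 of them (54.3%) reached 10 CPM, against 78.3% of all unigenes, so nearly all were detected in pupae but at lower levels than in males or the labelled female library.

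The unigenes with the largest gain in level in mated females were of both kinds. comp28593_c1, ortholog of FBgn0004045, had 4694 counts in males, 3589 in the labelled female library and 335735 in mated females, 89.9-fold higher (87.0 to 92.9), and it alone made 37361 CPM of the mated female library. Its egg library held 144 counts. comp30013_c1 had 1022, 808 and 106271 counts, 126-fold higher (118 to 136), with 133633 in eggs. comp25323_c0 had 23, 25 and 72383 counts, 2781-fold higher (1884 to 4298), with 254 in eggs. The first and the last were thus abundant in mated females with little in eggs, whereas comp30013_c1 was abundant in both. comp28173_c0, an abundant transcript in every library, had 67406, 52634 and 93238 counts and was only 1.70-fold higher.

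The largest ratios belonged to transcripts that were nearly absent from every library but that of mated females. Cp19 (comp24503_c0), with 2 counts in the labelled female library and 12700 in mated females, was 6100-fold higher (1688 to 50376), and eggs had 3 counts. comp24600_c0, ortholog of FBgn0003979, had 1 count in males, 4 in the labelled female library, 32912 in mated females and 5 in eggs, 7904-fold higher (3087 to 29012). comp22428_c0, ortholog of FBgn0000359, had 2, 1 and 9465 counts with 2 in eggs. These 3 transcripts were at 1105, 5625 and 1361 FPKM in mated females and below 1 FPKM in the labelled female library. comp26512_c0, ortholog of FBgn0014466, had 1, 1 and 8112 counts, and comp23290_c0 had 3, 1 and 11683 counts. All 5 had fewer than 10 counts in each of the other 5 libraries, eggs included.

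**Figure D4:**
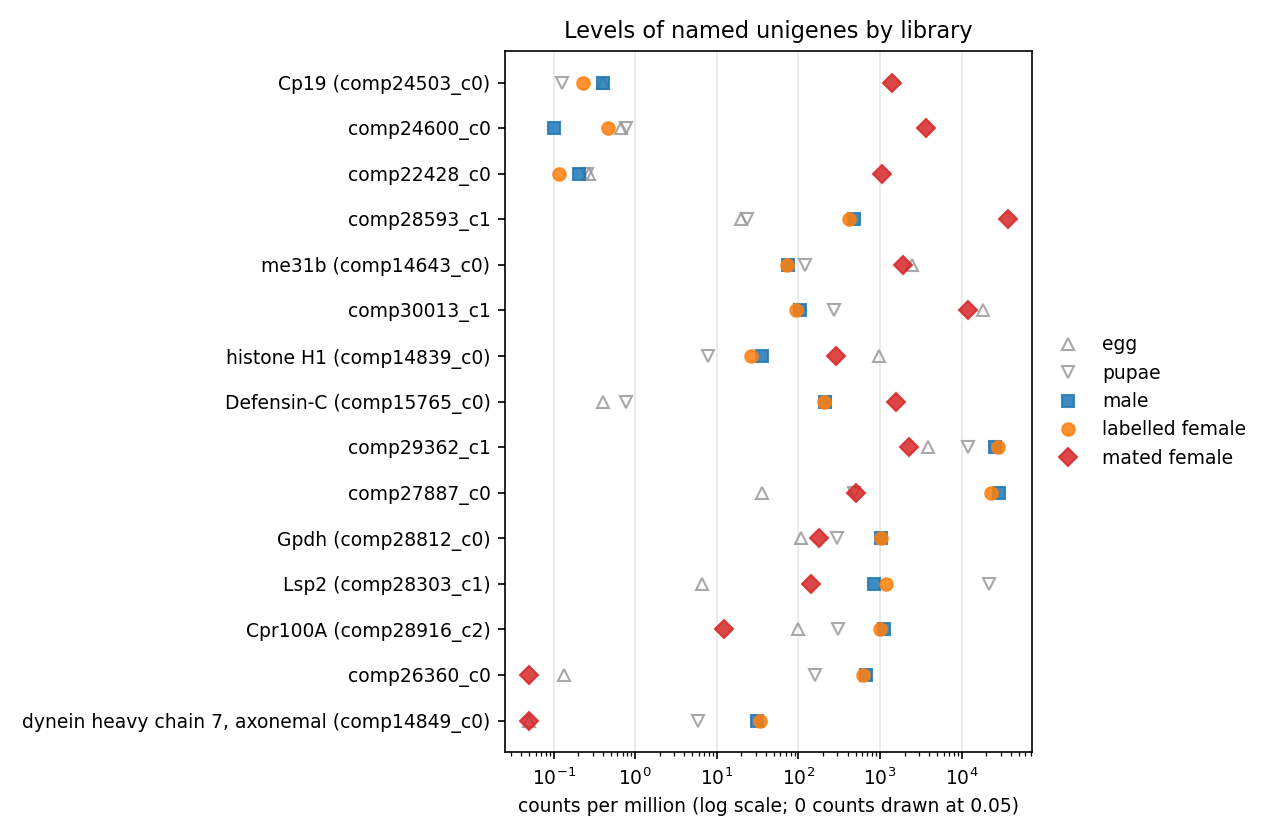
Symbols give the level (horizontal axis, CPM on a log scale, 0 counts drawn at 0.05) of 15 unigenes (vertical axis) in eggs, pupae, males, the labelled female library and mated females. Squares (male) and circles (labelled female) lie close together except in the line of comp24600_c0 (0.101 and 0.463 CPM). The diamonds of mated females stand to the right of the squares and circles in the upper 8 lines and to their left in the lower 7. The egg and pupa symbols do not follow this split. For comp30013_c1, eggs (18090 CPM) lie to the right of mated females (11826 CPM).

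On the other side, the largest losses in level in mated females were found in abundant transcripts. comp29362_c1 had 252513 counts in males, 243724 in the labelled female library and 20177 in mated females, 12.6-fold lower in the last (12.4 to 12.8). comp27887_c0 had 282068, 195446 and 4589 counts, 44.3-fold lower (43.1 to 45.7), and at 25698 FPKM it was above comp29362_c1 at 6658 FPKM in the labelled female library. It also showed a difference from males, with a log2 ratio of labelled female over male of -0.33. comp27198_c0 had 181509, 157695 and 18636 counts, 8.81-fold lower, and comp28958_c0, ortholog of FBgn0263006, had 89760, 82983 and 15840 counts, 5.45-fold lower. comp28816_c2, ortholog of FBgn0001233, had the most counts of these 5, with 378295, 386125 and 298234 counts, and was only 1.35-fold lower in mated females.

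The largest ratios toward the labelled female library came from transcripts at or close to 0 in mated females. comp26360_c0 had 6619 counts in males, 5360 in the labelled female library and 0 in mated females, at least 1860-fold lower. comp26863_c0 had 3710, 2556 and 0 counts, at least 887-fold lower, and comp22359_c0 had 2738, 2106 and 0 counts, at least 731-fold lower. comp22948_c0, ortholog of FBgn0038685, had 5268, 4340 and 2 counts, 2259-fold lower (625 to 18658). These 4 transcripts were present in pupae as well, with 1242, 653, 522 and 1157 counts. comp29824_c0 had 12338, 17494 and 5 counts, 3642-fold lower (1560 to 11218), and was 0.70 higher on the log2 scale in the labelled female library than in males.

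The genes of the sex determination pathway other than dsx were next. tra-2, the splicing partner of tra, had 234 counts in males, 149 in the labelled female library and 630 in mated females, 4.06-fold higher (3.39 to 4.89). sisA, which counts X chromosomes in the early Drosophila embryo, had 0, 0 and 287 counts, at least 91.9-fold higher, and 520 counts in eggs. msl-1, of the dosage compensation complex of Drosophila males, had 198, 184 and 643 counts, 3.36-fold higher (2.85 to 3.98), with 607 in eggs. msl-2 and msl-3, of the same complex, were not called. msl-2 had 62, 70 and 98 counts (ratio 1.34, 0.980 to 1.86) and msl-3 had 747, 712 and 645 (ratio 0.870, 0.781 to 0.970). scute had 0 counts in all 3 adult libraries. So 3 of the 6 members with enough counts were higher in mated females and none was higher in the labelled female library. This held under the other scalings too. With column totals, 32.6% and 22.1% of all unigenes were called in these directions. Of 7358 unigenes, 1879 and 1898 were called with TMM factors, and 1712 and 2012 with size factors. The background for each list count that follows is that of the same scaling.

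Several families share similarity with further members of the pathway, and a match to such a family does not identify the gene. Of 15 unigenes that matched Sxl, an RNA-binding protein, 5 were higher in mated females and 4 were higher in the labelled female library, close to the shares of all unigenes (32.6% and 22.1%), and with size factors the counts were 2 and 4. Against males they were 6 and 2 of 13. Of these 4 matches, 3 lay above males, 1 of them past 2-fold, and they are named here after their values were seen. comp24107_c0 had 75 counts in males, 144 in the labelled female library and 17 in mated females, a labelled female level 2.20-fold that of males. comp26077_c0 had 64, 100 and 14 counts (1.79-fold) and comp30067_c0 had 191, 298 and 81 (1.79-fold). The remaining match, comp23941_c1, had 1792, 1449 and 248 counts and was 0.928 of the male level. Among the 9 matches to Gro, a corepressor, 7 were higher in mated females and none was lower (6 with either other scaling), with a median log2 ratio of 1.45. The largest of these was comp28928_c0 with 105, 94 and 763 counts. The single runt match with enough counts, comp29343_c0, had 4, 3 and 320 counts, 102-fold higher (34.7 to 499.5), and 464 in eggs. Of 4 dpn matches none was called, and of 2 unr matches comp30423_c0 was lower in mated females with 1573, 1587 and 632 counts.

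Maternal and oocyte genes other than Cp19 and mos included me31b, an RNA helicase that represses maternal messages in the Drosophila oocyte. It had 743 counts in males, 632 in the labelled female library and 17315 in mated females, 26.3-fold higher (24.3 to 28.5), and 18389 in eggs. grauzone, a Drosophila regulator of female meiosis, had 108, 109 and 148 counts and was not called. mos was 12.4-fold higher (6.72 to 25.4). Of the 4 listed genes with enough counts 3 were higher in mated females, beside 32.6% of all unigenes.

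Genes of chromatin, replication and cell division followed the same direction. With column totals 5 of 6 were higher in mated females, beside 32.6% of all unigenes, with a median log2 ratio of 2.53. The split stayed 5 to 0 under the other scalings, and 4 of 6 were higher against males. Histone H1, the linker histone, had 356 counts in males, 225 in the labelled female library and 2598 in mated females, 11.1-fold higher (9.68 to 12.8). Histone H3 had 9, 10 and 235 counts, 22.6-fold higher (12.1 to 47.7). Both were high in eggs, with 7079 and 539 counts. Chromatin accessibility complex protein 1 had 86, 72 and 666 counts, and haspin, the mitotic kinase of histone H3, had 70, 76 and 296. The subunit 4 of DNA polymerase epsilon had 162, 86 and 244 counts, 2.73-fold higher (2.12 to 3.53). It was among the members in which the labelled female library lay below males, 1.64-fold. Histone H4 was not called, with 3665, 2440 and 4242 counts.

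The P450 enzymes of ecdysteroid synthesis and breakdown were all called higher in mated females with column totals, CYP18A1 narrowly. In Drosophila, the products of CYP306A1, CYP302A1, CYP315A1 and CYP314A1 carry out successive hydroxylations toward the active hormone, and CYP18A1 inactivates it. CYP306A1 had 0 counts in males, 2 in the labelled female library and 123 in mated females, a ratio of 59.1 (16.01 to 493.3). CYP302A1 had 183, 112 and 327 counts, 2.80-fold higher (2.26 to 3.51), with a labelled female level 1.42-fold below that of males. CYP315A1 had 144, 140 and 799 counts, 5.48-fold higher (4.58 to 6.61), and CYP314A1 had 202, 192 and 612, 3.06-fold higher (2.60 to 3.62). CYP18A1 had 443, 387 and 831 counts, 2.06-fold higher (1.83 to 2.33), and fell under the threshold with TMM or size factors, which left 4 of 5. Against males 4 of 5 were higher, CYP302A1 being the exception at a log2 ratio of 0.98. Of the juvenile hormone genes, Jheh1 and JhI-26 were not called, with 111, 96 and 79 and with 942, 744 and 642 counts.

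**Figure D5:**
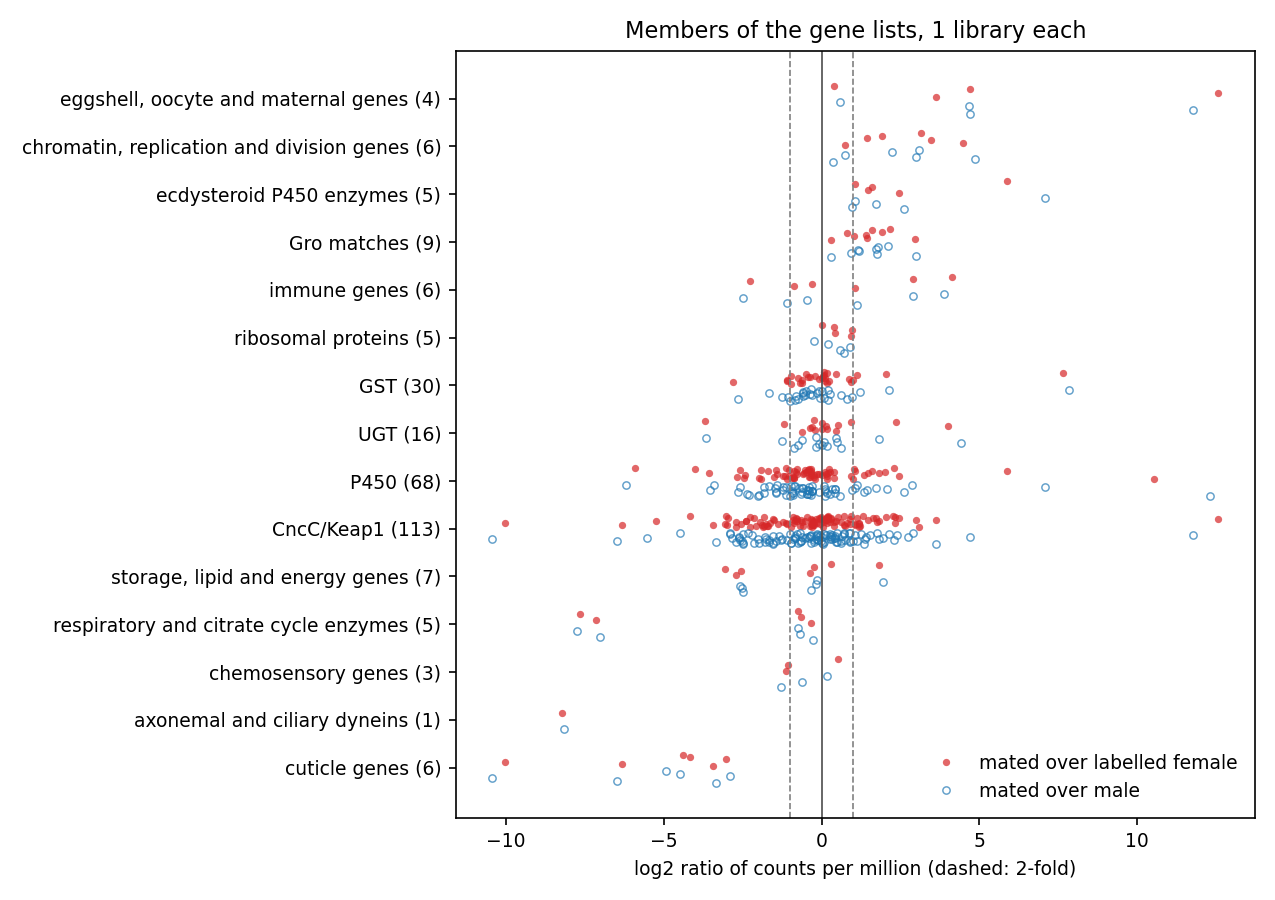
Points give the log2 ratio (horizontal axis) of mated females over the labelled female library (filled) and over males (open) for every member of 15 gene lists (vertical axis, number compared in brackets) with enough counts, 1 library each. Filled and open points of a list cover nearly the same range, with the eggshell and chromatin lists to the right of 0 and the 6 cuticle genes to the left.

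Genes of the cuticle were lower in mated females. All 6 listed members with enough counts were called, at any of the scalings, where 22.1% of all unigenes were lower with column totals. Their median log2 ratio was -4.29. With the 3 others included, the summed level was 1916 CPM in males, 1720 in the labelled female library and 67.2 in mated females. Cpr49Ab, a chitin-binding cuticle protein, had 1521 counts in males, 1004 in the labelled female library and 0 in mated females, at least 348-fold lower. Cpr100A, of the same family, had 11031, 8596 and 111 counts, 80.6-fold lower (66.9 to 98.1). Larval cuticle protein 8 had 737, 447 and 22 counts, and 10134 in pupae. The chitin-binding proteins obst-B and obst-A had 2321, 1641 and 95 and 2514, 2362 and 305 counts. ebony (e), an enzyme of cuticle pigmentation, had 778, 725 and 70 counts, 10.8-fold lower (8.43 to 14.0). Adult age, mating and, given the doubt about the label, sex cannot be told apart in this difference.

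Energy and storage genes were mixed. Lsp2, a larval storage protein, had 8410 counts in males, 10116 in the labelled female library and 1274 in mated females, 8.27-fold lower in the last (7.80 to 8.77), and 170089 in pupae. It was 1.38-fold higher in the labelled female library than in males. Gpdh, the glycerol phosphate dehydrogenase of flight muscle and fat body, had 10069, 8899 and 1596 counts, 5.80-fold lower (5.502 to 6.126), and AcCoAS, an acetyl-CoA synthetase, had 234, 241 and 38. mdy, a diacylglycerol acyltransferase that the Drosophila ovary uses to store lipid, had 338, 322 and 1190 counts, 3.55-fold higher (3.14 to 4.03), with 1332 in eggs. Mf, ATPCL and Lsd-1 were not called.

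Among enzymes of respiration and the citrate cycle, 2 of 5 were lower in mated females, beside 22.1% of all unigenes. These 2 were nearly absent there. An isocitrate dehydrogenase unigene (comp14690_c0) had 239 counts in males, 194 in the labelled female library and 1 in mated females, 202-fold lower (35.8 to 8017). A fumarate hydratase unigene (comp14886_c0) had 141, 135 and 0 counts, at least 46.8-fold lower. Neither had a count in eggs, and both had counts in pupae, 76 and 59. The oxidative phosphorylation members were not called, with cytochrome c oxidase subunit 5B at 12975, 11312 and 7032 counts, though size factors brought it over the threshold.

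Of 6 immune genes 3 were higher and 1 was lower in mated females, beside 32.6% and 22.1% of all unigenes, so only the single genes are described. Defensin-C, an antibacterial peptide, had 2066 counts in males, 1788 in the labelled female library and 13968 in mated females, 7.50-fold higher (7.14 to 7.89). PGRP-SC2, an amidase that degrades bacterial peptidoglycan, had 80, 58 and 1069 counts, 17.7-fold higher (13.6 to 23.5). Hml, a hemocyte protein of clotting, had 410, 374 and 814 counts, 2.09-fold higher (1.85 to 2.37). AttA, an attacin peptide, went the other way with 253, 191 and 41 counts, 4.85-fold lower (3.45 to 6.97), and Attacin-B, too low for a call, had 58, 62 and 14. The recognition proteins GNBP3 and PGRP-SB1 were not called. With TMM or size factors Hml lost its call and GNBP3, with 754, 562 and 319 counts, passed the threshold as lower, so the split of 3 higher and 1 lower became 2 and 2. Against males it was 3 and 2.

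Of the chemosensory genes, 2 of 3 were lower in mated females, too few to set against the 22.1% of all unigenes. The general odorant-binding protein 99a had 65, 76 and 38 counts, 2.08-fold lower (1.39 to 3.16), and Snmp, a membrane protein of pheromone-sensing neurons, had 140, 108 and 52, 2.16-fold lower (1.54 to 3.07). Against males only Snmp was past the threshold. None of 5 ribosomal protein genes was called, and their median log2 ratio of 0.41 lay close to that of all unigenes, 0.38. Gut proteases and transposable elements had too few counts in any member, and the 1 neuronal receptor with enough counts, nAcRbeta-21C, had 181, 189 and 208.

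The P450 superfamily as a whole leaned the other way from its ecdysteroid members. P450s are heme enzymes that oxidize hormones, lipids and xenobiotics. Of 92 listed unigenes, 68 had enough counts, with 11 higher in mated females and 20 higher in the labelled female library, where 32.6% and 22.1% of all unigenes were called. The median log2 ratio was -0.40 against 0.38 over all unigenes. The split was 9 and 28 with TMM or with size factors, where 1879 and 1898, or 1712 and 2012, of all 7358 unigenes were called. Against males it was 10 and 21. In the CYP6 family, known for detoxification, 3 of 23 were higher and 8 were lower in mated females, and in the CYP4 family 2 and 5 of 18, for which no split against males was computed. Between the labelled female library and males, 0 of 67 P450 unigenes differed 2-fold. Over all unigenes, 0.416% were higher in the labelled female library and 0.166% in males, so the 0 does not set the family apart.

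CYP6A14 (comp30145_c0) had 0 counts in males, 3 in the labelled female library, 4589 in mated females and 6393 in eggs, a ratio of 1469 (503 to 7128). Another unigene named CYP6A14, comp23940_c0, was not called, with 175, 157 and 129 counts. A further one, comp23375_c0, was too low for a call, with 41, 48 and 44. In the opposite direction, CYP6A18 (comp14461_c0) had 242, 172 and 3 counts, 59.7-fold lower in mated females (20.1 to 292). CYP6A2 (comp22299_c0) had 269, 358 and 23 counts, 16.2-fold lower (10.6 to 25.9), and CYP6G2 (comp27796_c1) had 598, 532 and 47, 11.8-fold lower (8.73 to 16.2). Other unigenes named CYP6A2 changed less. comp26847_c0 and comp28805_c0 were 3.24-fold and 2.06-fold lower in mated females, and comp29169_c0 and comp29207_c0 were not called. The unigenes named CYP6A14, and those named CYP6A2, thus differed in size of change, and reads shared between near copies may have been split between them.

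Glutathione S-transferases (GSTs) and UDP-glycosyltransferases (UGTs) conjugate xenobiotics. Of 30 GST unigenes, 4 were higher in mated females and 3 were lower, but the split was 2 and 5 with TMM factors, 2 and 6 with size factors and 3 and 5 against males, so the family had no stable direction. comp20714_c0 had 3 counts in males, 3 in the labelled female library and 629 in mated females, a ratio of 201 (68.6 to 979), with 504 in eggs. comp22808_c1, ortholog of FBgn0063493 and named GstE7, had 1407, 1331 and 5648 counts, 4.08-fold higher (3.84 to 4.33). comp24081_c0 had 483, 445 and 1019 counts. comp28261_c0 had 17250, 16843 and 2515 counts, 6.97-fold lower (6.68 to 7.27), and comp27043_c0 and comp27284_c0 were 2.15-fold and 2.14-fold lower. The most abundant GST in mated females, comp27062_c0, had 12085, 10197 and 21247 counts, just past the threshold at 2.002-fold.

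Of 16 UGT unigenes 2 were called each way at each scaling, beside 32.6% and 22.1% of all unigenes with column totals. comp27454_c0 had 211 counts in males, 243 in the labelled female library, 4061 in mated females and 4734 in eggs, 16.1-fold higher (14.1 to 18.3), and comp25701_c0 had 159, 96 and 508, 5.08-fold higher (4.08 to 6.39). comp25250_c0 had 182, 161 and 13 counts, 12.9-fold lower (7.33 to 24.7), and comp26168_c0 had 285, 235 and 108. The third-ranked ratios each way, of comp25617_c0 with 71, 45 and 89 counts and comp30185_c0 with 699, 507 and 346, were not past the threshold.

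The study listed 141 unigenes whose Drosophila counterparts changed in expression when the CncC/Keap1 pathway was activated. Of these unigenes, 113 had enough counts. The list also holds eggshell, storage and cuticle genes, such as Cp19, Lsp2 and Cpr100A. It overlaps the groups above. In it 22 were higher in mated females and 33 were higher in the labelled female library, with a median log2 ratio of -0.24, beside 32.6% and 22.1% called and a median of 0.38 over all unigenes. Against males the split was 18 and 33 of 112. With TMM factors the split was 15 and 41, beside 1879 and 1898 of all 7358 unigenes. With size factors it was 14 and 42, beside 1712 and 2012. Cp19 and mos led the former, followed by CG12057 with 23, 29 and 255 counts, 8.45-fold higher (5.74 to 12.9). Cpr49Ab and Cpr100A led the latter, followed by CG10479 with 2236, 1601 and 44 counts, 37.9-fold lower (28.1 to 52.3). Keap1 itself, the cytoplasmic repressor of CncC, was not called, with 370, 368 and 547 counts. Between the labelled female library and males 0 of 110 members differed 2-fold, beside 0.416% and 0.166% of all unigenes, so the 0 does not set the list apart.

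Isoform use also differed beyond dsx. Among 2247 unigenes with several isoforms and at least 200 counts in each library, 313 (13.9%) had a distance of at least 0.5 between the labelled female library and mated females. Between the labelled female library and males it was 50 of 2662 (1.88%). Over the 2234 unigenes compared in both pairs the numbers were 311 and 42, with median distances of 0.211 and 0.0871. comp26046_c0 changed completely, its seq2 holding all 250 counts in males and all 263 in the labelled female library and its seq1 all 282 in mated females. comp30201_c0 had 99.6% of its counts on seq2 in males, 98.8% in the labelled female library and 0% in mated females, where all 294 were on seq1. comp24220_c0 had 86.8% of its counts on seq9 in males, 98.3% in the labelled female library and 0% in mated females, and comp29316_c0 had 82.7% on seq15 in mated females and 0% in both other adult libraries. The totals of comp26046_c0, 263 and 282 counts in the labelled female and mated female libraries, were thus much alike while the isoform differed.

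comp29500_c0 was the exception among the 5 with the largest distances, since there the labelled female library departed from both other adult libraries. Its seq6 held 97.9% in mated females and 52.7% in males and had 0 counts in the labelled female library, and its seq2 held 32.6% in the labelled female library and 0% in males. The distances were 0.979 from mated females, 0.530 from males and 0.452 between males and mated females. The UGT comp27454_c0 changed isoforms along with its level, with a distance of 0.969, since 89.1% of its counts were on seq11 in males, 89.3% in the labelled female library and 2.61% in mated females. In the msl genes the picture was mixed. msl-1 (comp27436_c0) in the labelled female library had 44.3% on seq3, against 16.1% in males and 17.6% in mated females, so that it lay 0.315 from males and 0.307 from mated females, while males and mated females lay 0.0149 apart. msl-3 (comp29813_c1) lay 0.509 from mated females and 0.178 from males, and msl-2 (comp27138_c0) 0.140 and 0.152. RSEM divides reads that fit several isoforms by estimation, so isoform shares, not only those with few counts, are uncertain beyond the counting error.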

How the data were processed

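The authors filtered the reads, assembled all libraries with Trinity without a genome and retained coding transcripts. They mapped every library to these with Bowtie 0.12.7 and estimated abundance with RSEM 1.2.0, the versions of the submitters' processing notes. The study's methods instead name an earlier RSEM release for this abundance step, and 1.2.0 for filtering the assembly. The authors deposited expected counts, not normalized, and FPKM scaled with TMM factors, for 10799 unigenes and 20666 isoforms. In the deposited matrices 0 columns were left without a sample. Since the deposited FPKM is 0 in every library for many unigenes, mostly ones without egg counts, CPM was computed from the expected counts. Lengths came from the ratio of counts to FPKM. Exact intervals used counts rounded to whole numbers, and 1 count was added to both sides of a log2 ratio only where a library was at 0. The ratio and call steps were tested on simulated data. Python 3.11.15 was used with scipy 1.17.1, pandas 2.3.3, matplotlib 3.10.9 and numpy 2.4.6.

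Names are those of the study's annotation, partly shortened here, and CG and FBgn names are of D. melanogaster. Members, lists, thresholds and the sets chosen on males and mated females were chosen with earlier results of these data known. Named were the single sex determination unigenes, list members past 2-fold, the 3 largest ratios each way in the P450, GST, UGT and CncC/Keap1 lists, the 5 largest CPM differences, ratios and isoform distances, and the 5 largest ratios each way against males. Alternatives were other scalings, folds, count minimums, thinning, FPKM with a pseudocount of 1 or 0.1 and the male library in place of the labelled female library.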

Additional observations from a re-analysis of the deposited data

How the results depend on the processing

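Counts of calls moved with the settings as follows. With a fold of at least 4, 894 unigenes were higher in mated females and 949 in the labelled female library. With at least 500 counts they were 1563 and 716. With no minimum and 1 count added to each library, 3512 unigenes were higher in the labelled female library, and with FPKM and a pseudocount of 0.1 there were 2999. Between the labelled female library and males, 381 unigenes differed at a fold of at least 1.5, and 4 of those with at least 500 counts differed 2-fold, against 42 in all. The other settings kept each count within 1.5 times, among them TMM factors (1879 and 1898), size factors (1712 and 2012), thinning (2404 and 1615) and the male library in place (2311 and 1669). The dsx distance was 0.848 from FPKM shares. Of 222 alternative ratios of 74 named unigenes, 77 left the counting interval and 1 changed sign, that of dsx, whose log2 ratio of 0.31 was -0.02 with size factors. No ratio past 2-fold changed sign. No paired analysis was possible because each group has 1 library, and for the same reason no library could be left out. The counts limit unigenes under about 100 counts, whose ratios have wide intervals, and no interval covers differences between pools of flies.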
